A study of Mus musculus with 9 samples.

Results

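The regenerating (Reg) family of secreted C-type lectins was followed in RNA-Seq of sorted epithelial cells of the mouse small intestine. All 7 family members listed in the deposited tables (Reg1, Reg2, Reg3a, Reg3b, Reg3d, Reg3g and Reg4) were taken by gene symbol, out of 35013 symbols in each table. Each group came from NFKO mice of the genotype Neurog3Cre-FoxO1 f/f; Rosa26tdtomato, aged 4 to 6 weeks, in which Cre is driven by the endocrine progenitor gene Neurog3, deletes FoxO1 and switches on the fluorescent protein Tomato. CD24negTomato+ and CD24+Tomato+ cells descend from Neurog3 progenitors and were separated by the surface protein CD24, and Tomatoneg cells are the unlabeled rest of the epithelium. Each of the 3 populations had 3 libraries, 9 altogether. The control population carried the same alleles but lacked the Tomato mark of Cre activity, and no Neurog3-derived library with intact FoxO1 was used here. The comparisons thus set Neurog3-derived cells against other epithelial cells from mice of the same genotype, and cannot tell lineage from FoxO1 deletion. They do not measure an effect of FoxO1 loss.

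Reg proteins are small secreted lectins of the gut and pancreas. REG3G and REG3B are antibacterial proteins that epithelial cells release into the lumen, and their transcription is known to be induced by interleukin 22 through STAT3 and by bacterial signals through MyD88. Reg1 and Reg2 are best known from the regenerating and inflamed pancreas, and Reg4 is known from endocrine and other secretory cells of the intestine.

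Of the 7 genes, 6 form a compact cluster on mouse chromosome 6, and Reg4 lies apart on chromosome 3. In the GENCODE M21 annotation of GRCm38 the cluster spans chr6:78370657-78468872, which is 98216 bases, in the order Reg3b, Reg3d, Reg3a, Reg2, Reg1 and Reg3g, and these 6 are the only annotated genes inside it. Reg3d and Reg3g are on the minus strand and the others are on the plus strand. Reg4 is at chr3:98222156-98236748 on the plus strand. In the coding sequence, Reg1 and Reg2 shared 82.5% of aligned bases and Reg3b and Reg3g shared 76.4%, whereas Reg4 shared between 57.4% and 63.0% with the others. Estimated counts can be split between near-identical copies, so shared stretches of 31 bases were counted. Only 5 such stretches were common to Reg3b and Reg3g (0.446% of those of Reg3b and 0.231% of those of Reg3g), and Reg3a, Reg3d and Reg4 shared none with any other annotated gene. Reg1 shared 5.70% with other genes, mostly with Gm15912, and Reg2 shared 16.5%, so the low Reg2 values carry the largest uncertainty of this kind.

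The 250 bases before the RefSeq start of transcription (GRCm38.p6) are shown for 3 members: Reg3b and Reg3g, the most abundant transcripts, and Reg4, the member that was higher in both Tomato+ populations. Capitals mark matches on either strand to TTCNNNGAA, the sequence that STAT proteins recognize, and to TATAAA, the TATA box. The 2 motifs overlapped nowhere. The Reg3b stretch is chr6:78370635-78370884 on the plus strand and overlaps the start of the GENCODE gene model, the Reg3g stretch is chr6:78468875-78469124 on the minus strand, and the Reg4 stretch is chr3:98221906-98222155 on the plus strand.
Reg3b: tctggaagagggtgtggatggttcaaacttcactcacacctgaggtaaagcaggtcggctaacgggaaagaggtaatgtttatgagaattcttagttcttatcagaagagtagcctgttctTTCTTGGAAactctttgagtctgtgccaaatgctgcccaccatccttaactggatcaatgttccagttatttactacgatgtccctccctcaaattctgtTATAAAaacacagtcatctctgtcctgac
Reg3g: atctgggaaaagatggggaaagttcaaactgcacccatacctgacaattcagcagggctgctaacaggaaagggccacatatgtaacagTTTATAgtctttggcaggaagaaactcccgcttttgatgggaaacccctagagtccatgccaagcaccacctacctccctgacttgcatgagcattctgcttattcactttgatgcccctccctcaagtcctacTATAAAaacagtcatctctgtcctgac
Reg4: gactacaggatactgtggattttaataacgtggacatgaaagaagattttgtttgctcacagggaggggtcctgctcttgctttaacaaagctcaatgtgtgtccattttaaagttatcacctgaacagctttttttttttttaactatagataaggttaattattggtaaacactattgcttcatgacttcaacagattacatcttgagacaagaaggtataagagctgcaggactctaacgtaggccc
The Reg3b and Reg3g stretches shared 70.0% of aligned bases, ended in the same letters and each held a TATA box, 29 and 27 bases before the start. A STAT motif was found in Reg3b, from 129 to 121 bases before the start, and in Reg3d, but not in the window of Reg3g. Thus 2 of 7 members held TTCNNNGAA, against 7.02% of the 32851 annotated mouse promoter windows of this length, and 4 of 7 (Reg1, Reg2, Reg3b and Reg3g) held TATAAA, against 12.4%. The E-box CANNTG, which is bound by NEUROG3 and many other basic helix-loop-helix factors, was present in all 7 members and in 66.2% of windows. Neither TTCNNNGAA nor TATAAA was found before Reg4. These matches describe the letters only, and no binding was measured.

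The labels were checked first. Foxo1, the gene deleted by Cre, was at 467, 274 and 371 normalized counts in CD24negTomato+ replicates 1, 2 and 3, against 695, 518 and 424 in Tomatoneg replicates, an overlap with a log2 fold change of -0.56 (adjusted P = 0.427, limma, and 0.207 with the block). In CD24+Tomato+ cells it was at 319, 193 and 201 against 748, 529 and 444, without overlap (-1.27, adjusted P = 0.0579, limma, and 0.0219 with the block). Counts over the whole gene also hold reads outside the deleted part, and their part in these Foxo1 values was not tested. Cd24a was at 25857 to 30949 normalized counts in CD24+Tomato+ libraries, against 3170 to 5914 in Tomatoneg libraries of the same table, and at 993 to 2054 in CD24negTomato+ libraries, so the sort was visible in the transcript. Epcam, the epithelial antigen used in the sort, was at 20915 to 37673 in the 9 libraries. Goblet markers were higher in both Tomato+ populations (9 of 9), as were endocrine (EEC) markers (8 of 12 in CD24negTomato+ and 12 of 12 in CD24+Tomato+ cells). With the block, 10 EEC markers were higher in CD24negTomato+ cells and 2 were lower, Sst and Gip (log2 fold change -2.34 and -1.75, adjusted P = 0.0134 and 0.0304, limma). Of 9 Paneth markers, 9 were higher in CD24+Tomato+ cells, and in CD24negTomato+ cells 0 passed by limma (7 were lower at an unadjusted P under 0.05, and 6 with the block). Tuft markers were lower in 3 of 6 tested in CD24negTomato+ cells (6 with the block) and higher in 7 of 8 in CD24+Tomato+ cells. Lymphocyte markers, which are no part of an epithelial cell, summed to 4279 to 14407 normalized counts in Tomatoneg libraries and to 737 to 1579 in CD24negTomato+ libraries, and their part in the Reg values was not tested. The sum of normalized counts was 22594850 to 30332463 per library, and Tomatoneg replicate 1 had the fewest genes above 0 (13025, against 15644 to 18530 elsewhere). The value of 3 reads was estimated at 2.10 to 4.29 normalized counts by taking the commonest low value of a library as 1 read, and this covers counting error only. Same-numbered libraries deviated together in both tables. A fit blocked on the replicate number is therefore given beside each Reg gene whose call it changed.

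Reg transcripts were among the most abundant of the epithelium, and nearly all of that was Reg3b and Reg3g. Together the 7 genes took 1.90%, 4.47% and 5.75% of the normalized counts of Tomatoneg replicates 1, 2 and 3. In CD24negTomato+ cells they took 1.86%, 3.30% and 4.87%, and in CD24+Tomato+ cells 0.950%, 1.38% and 2.17%. Thus in each same-numbered set the CD24+Tomato+ library had the smallest share and the Tomatoneg library the largest. In replicate 1 the CD24negTomato+ and Tomatoneg shares were close. There the summed Reg normalized counts had the other order, 524269 in CD24negTomato+ against 484467 in Tomatoneg. Reg3b was the most abundant or second most abundant of all genes in Tomatoneg libraries (rank 2, 2 and 1), ranked 5, 4 and 3 in CD24negTomato+ cells, and ranked 10, 14 and 6 in CD24+Tomato+ cells. A share of a library is nearly free of the scaling of the table, since the Tomatoneg share of replicate 1 was 1.90% in either table, and it is given without a test.

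**Figure D1:**
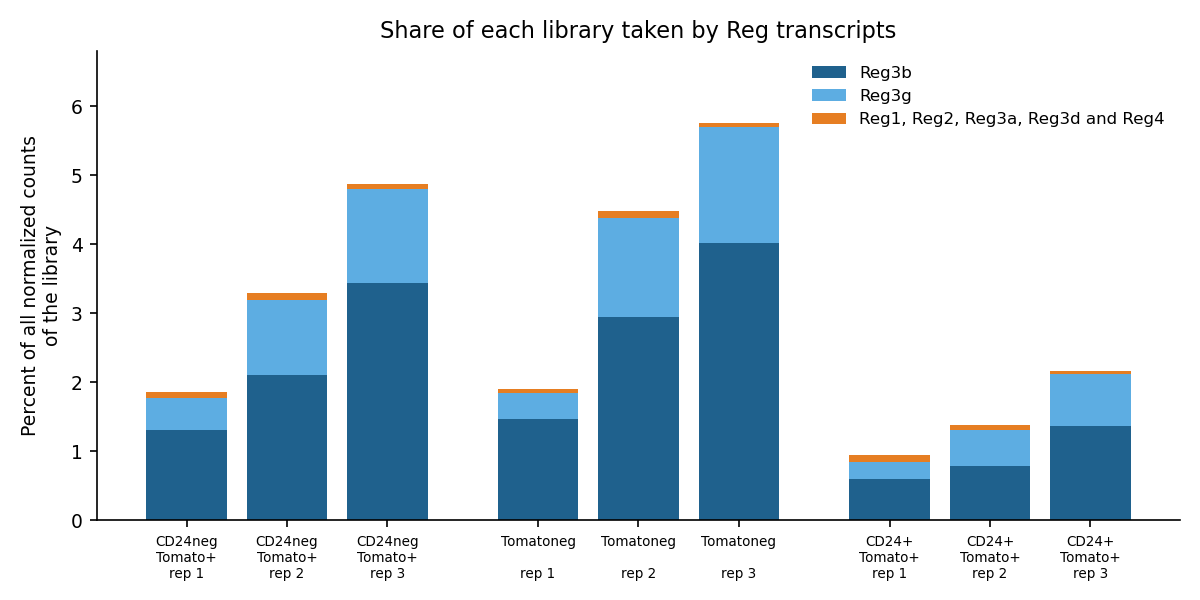
Percent of all normalized counts of each library (vertical axis) taken by Reg3b, Reg3g and the other 5 Reg genes, stacked, for the 3 replicates of each population, with Tomatoneg libraries from the table they share with CD24negTomato+. Reg3b and Reg3g fill nearly all of each bar, replicate 3 is the highest in each population, and the CD24+Tomato+ bars stay between 0.950% and 2.17%.

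Within a library, members were compared per kilobase of transcript, since a long transcript gives more reads. Reg3b made up 65.8% to 77.3% of the summed Reg level of Tomatoneg libraries, 64.0% to 70.8% in CD24negTomato+ and 57.9% to 63.6% in CD24+Tomato+ libraries. Reg3g made up 20.1% to 32.4%, 25.2% to 33.2% and 28.2% to 38.4% of it. The order of levels began with Reg3b and Reg3g in each of the 9 libraries, Reg3b being 1.51 to 3.85 times higher. The next place differed between populations. In Tomatoneg cells it was held by Reg1 (9976 to 19492 normalized counts per kilobase), followed by Reg3a (3681 to 5284) and Reg4 (337 to 711), 3 ranges that did not overlap. In CD24negTomato+ cells Reg1 again came next (15985 to 22900), but Reg3a (3521 to 6092) and Reg4 (2798 to 5856) could not be ordered, as their ranges overlapped. In CD24+Tomato+ cells Reg4 came next (9469 to 17274 per kilobase), above Reg1 (3103 to 3779) and Reg3a (977 to 1692). Reg2 and Reg3d were last everywhere, with at most 254 per kilobase. The ratio of Reg3g to Reg4 per kilobase thus ran from 369 to 1232 in Tomatoneg cells. It ran from 30.1 to 191 in CD24negTomato+ cells and from 4.39 to 29.3 in CD24+Tomato+ cells. The ranges did not overlap, but those of the Tomato+ populations nearly met, and the ratio was not tested.

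**Figure D2:**
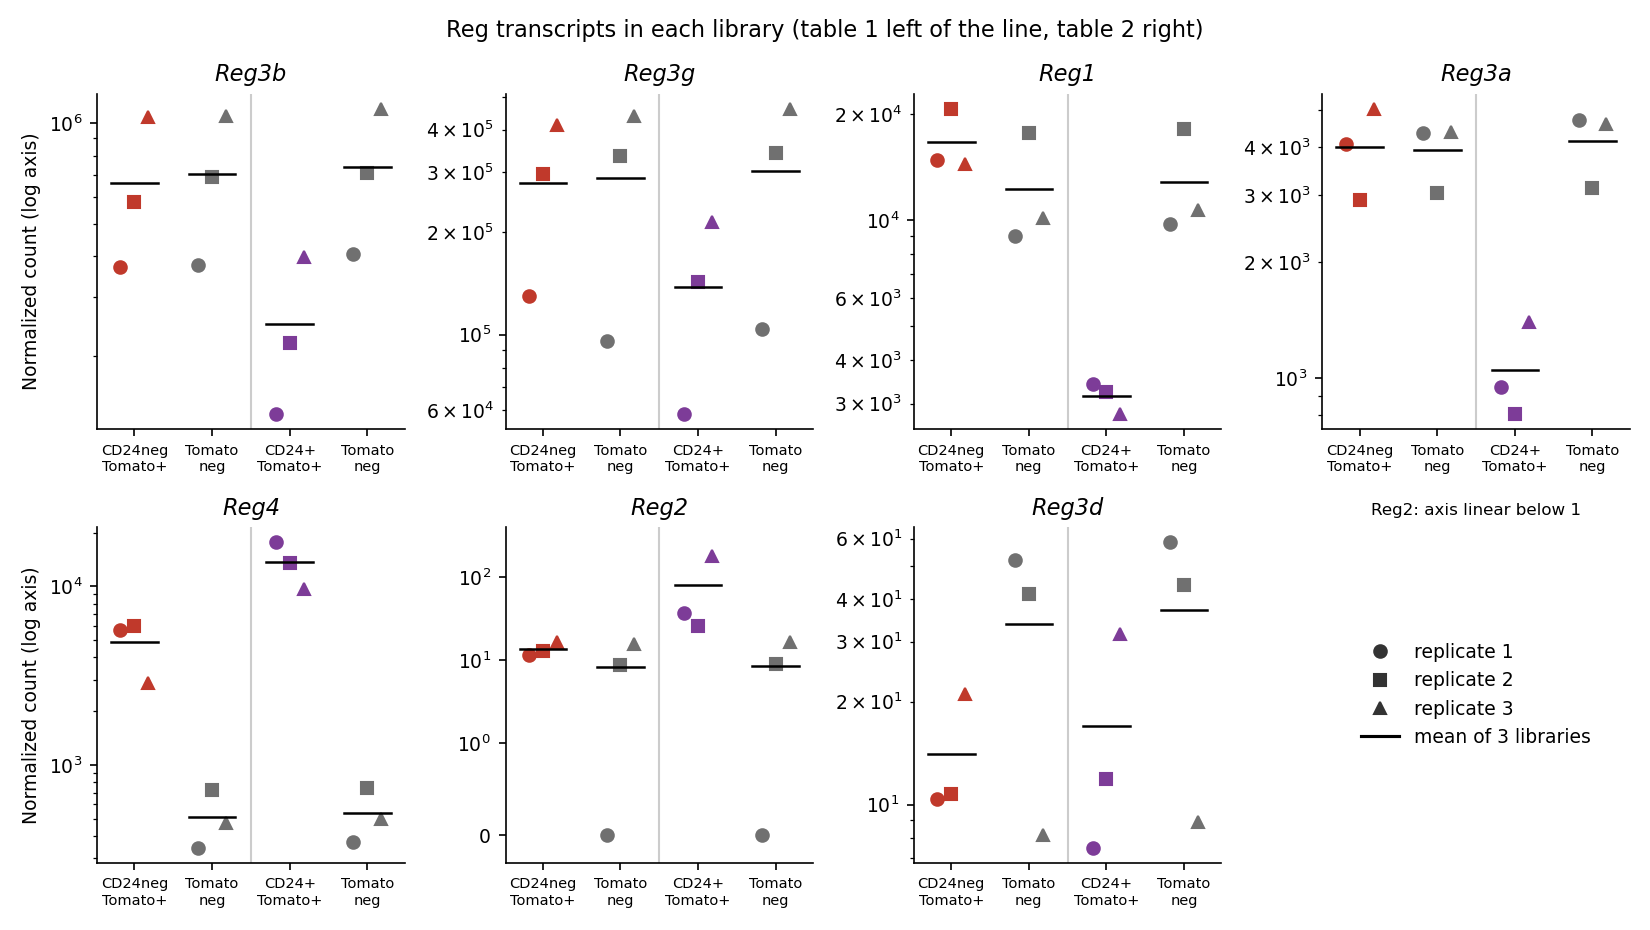
Normalized count of each Reg gene (log axis, linear below 1 for Reg2) in every library, with the mean of 3 libraries as a line. The 2 tables were scaled separately and are divided by the grey line, and the same Tomatoneg libraries appear in both. Reg4 is higher and Reg1 and Reg3a are lower in CD24+Tomato+ than in Tomatoneg libraries, while Reg3b and Reg3g follow the replicate number in each population.

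CD24negTomato+ cells were compared with Tomatoneg cells to ask which Reg genes mark the CD24neg part of the Neurog3 lineage. Of the 7 genes, 1 was higher (Reg4) and 0 were lower, where 0.999% of 13420 genes tested were higher and 0.32% lower at an adjusted P under 0.05 (limma on log2(normalized count + 1), Benjamini-Hochberg adjustment over all genes tested). At an unadjusted P under 0.05 the number lower was also 0. With the replicate block the same single member passed, and the share of all genes rose to 4.34% higher and 2.96% lower. Only Reg4 had groups without overlap, a pattern found in 25.3% of all genes. The median log2 fold change was 0.06 over the members and 0.08 over all genes.

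Reg4 was the member that set CD24negTomato+ cells apart from Tomatoneg cells, but it was not particular to them. It took 0.00942% to 0.0218% of the normalized counts of CD24negTomato+ libraries and 0.0335% to 0.0781% of those of CD24+Tomato+ libraries. In CD24negTomato+ replicates 1, 2 and 3 it was at 5707, 5979 and 2857 normalized counts, and in Tomatoneg replicates at 344, 725 and 470. The lowest CD24negTomato+ library was thus above the highest Tomatoneg library. Means were 4847 ± 1729 and 513 ± 194 (SD, n = 3), a 9.44-fold difference, and limma gave a log2 fold change of 3.23 with a standard error of 0.39 (adjusted P = 0.0131, limma, and 0.00568 with the block). The call held without CD24negTomato+ replicate 3 (adjusted P = 0.0249, limma) and without any 1 of the Tomatoneg libraries (0.0119 to 0.0358), but was lost in other cases. Without CD24negTomato+ replicate 1 the log2 fold change was 3.07 and the adjusted P was 0.0911 (limma), without replicate 2 these were 3.04 and 0.114, and without both libraries numbered 1 they were 2.82 and 0.0582. In the same libraries the summed goblet markers were at 2123162 to 2823818 normalized counts against 137274 to 209690, and the summed EEC markers at 121123 to 240317 against 6279 to 14219. The part of either cell type in the Reg4 level was not tested. In bulk samples more or fewer cells of a type and more or less RNA per cell cannot be told apart.

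Reg3b and Reg3g, the antibacterial pair, differed much more between replicates than between these populations. In CD24negTomato+ replicates 1, 2 and 3 Reg3b was at 369936, 579441 and 1042204 normalized counts, and in Tomatoneg replicates at 374703, 688945 and 1049469. Reg3g was at 129732, 295908 and 411754 and at 96002, 333701 and 437474. For both genes replicate 1 was the lowest and replicate 3 the highest in each population, CD24+Tomato+ cells included. The log2 fold change of Reg3b was -0.09 with a 95% interval of -1.70 to 1.52 (adjusted P = 0.96, limma), which narrowed to -0.59 to 0.41 with the block. That of Reg3g was 0.06, with an interval of -1.62 to 1.74 (adjusted P = 0.977, limma), or -0.43 to 0.54 with the block. Quantile normalization gave -1.10 for Reg3b (adjusted P = 0.236, limma) and -0.73 for Reg3g (adjusted P = 0.633), both outside the blocked intervals, so these bounds hold for the deposited scaling.

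Reg3a, another member of the Reg3 group, gave 4073, 2905 and 5026 in CD24negTomato+ libraries 1, 2 and 3 (normalized counts), against 4347, 3037 and 4359 in Tomatoneg libraries. The groups overlapped, and the log2 fold change was 0.02 with a 95% interval of -0.63 to 0.66 (adjusted P = 0.983, limma). Reg1 was at 14800, 20701 and 14451 against 9018, 17621 and 10104. It was higher in 3 of 3 same-numbered pairs, by 0.71, 0.23 and 0.52 on the log2 scale, but the groups overlapped and the mean difference of 0.49 ± 0.32 (SE) did not pass (adjusted P = 0.467, limma, and 0.0942 with the block). Reg2 and Reg3d were the scarcest members. Reg2 was at 11.5, 12.9 and 16.4 normalized counts, against 8.61 and 15.7 in Tomatoneg replicates 2 and 3 and a listed 0 in replicate 1. Reg3d was at 10.4, 10.8 and 21.1, against 52.0, 41.2 and 8.14. Neither passed (adjusted P = 0.607 and 0.644, limma), and Tomatoneg replicate 3 was low for Reg3d where the other Tomatoneg libraries were high.

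CD24+Tomato+ cells were compared with the same Tomatoneg libraries in the second table, to ask which Reg genes mark the CD24+ part of the lineage. Of the 7 genes, 1 was higher (Reg4) and 2 were lower (Reg1 and Reg3a), where 8.02% of 13874 genes tested were higher and 4.89% lower (limma, adjusted P under 0.05). With the replicate block 1 was higher and 4 were lower, as Reg3b and Reg3g were added, and 10.8% of all genes were higher and 9.95% lower. Groups did not overlap for 5 of 7 members (Reg1, Reg2, Reg3a, Reg3b and Reg4), against 36.0% of all genes. The median log2 fold change was -1.06 over the members and 0.16 over all genes. The controls are shared with the first comparison, so the 2 sets of fold changes are not independent.

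**Figure D3:**
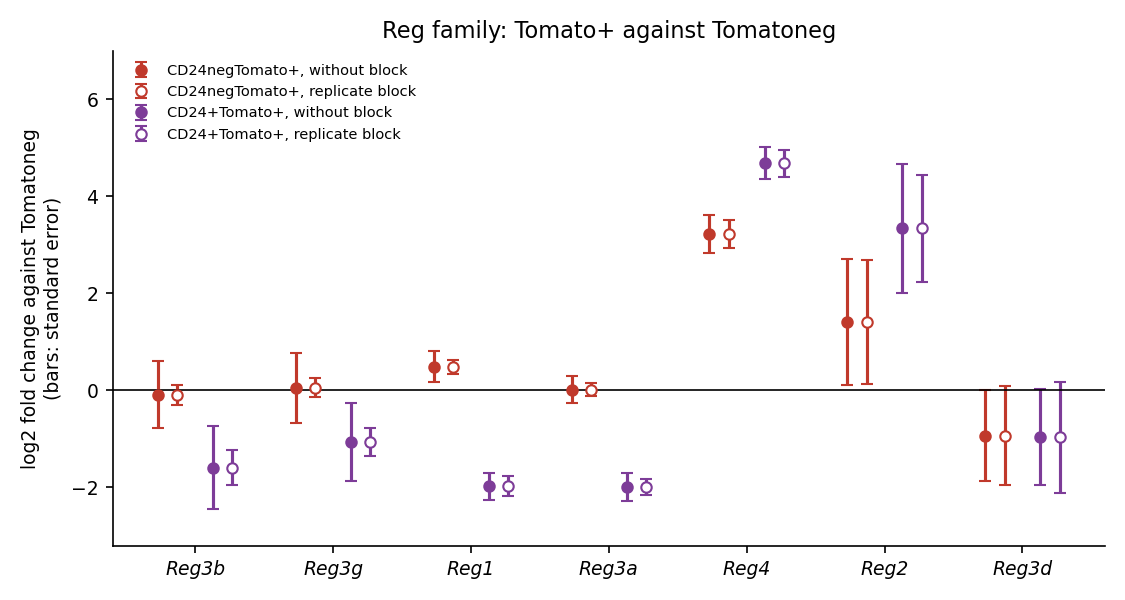
Log2 fold change of each Reg gene against Tomatoneg (vertical axis) with its standard error (bars, 3 libraries a group), for CD24negTomato+ and CD24+Tomato+ cells, fitted without (filled) and with (open) the replicate block. Reg4 is at 3.23 and 4.68, Reg1 and Reg3a are at -1.97 and -1.99 in CD24+Tomato+ cells, and the bars of Reg3b and Reg3g shorten with the block.

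Reg4 had the largest rise of the family in CD24+Tomato+ cells. It was at 17636, 13529 and 9668 normalized counts in CD24+Tomato+ replicates 1, 2 and 3 and at 372, 744 and 494 in Tomatoneg replicates. Each CD24+Tomato+ library was far above each Tomatoneg library. Means were 13611 ± 3985 and 537 ± 190 (SD, n = 3), a 25.4-fold difference and a log2 fold change of 4.68 ± 0.33 (SE), with an adjusted P of 0.00107 (limma). The call held under each of 14 alternatives, with log2 fold changes from 4.24 to 4.94. Here the summed EEC markers were at 348469 to 544641 normalized counts against 6604 to 14577, the summed goblet markers at 1025562 to 1285576 against 152528 to 222921, the summed Paneth markers at 516799 to 2326435 against 44876 to 173589, and the summed tuft markers at 15500 to 18148 against 1840 to 2421. The part of these cell types in the Reg4 level was not tested. Within CD24+Tomato+ cells Reg4 was highest in replicate 1, whereas Reg3b and Reg3g were highest in replicate 3.

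Reg1 and Reg3a, neighbors of Reg2 in the cluster, fell both with and without the block. Reg1 was at 3416, 3247 and 2805 normalized counts in CD24+Tomato+ replicates 1, 2 and 3 and at 9750, 18097 and 10640 in Tomatoneg replicates. Reg3a was at 949, 806 and 1396 against 4697, 3117 and 4587. In neither gene did the groups overlap. Reg1 was 4.06-fold lower by means (3156 ± 316 against 12829 ± 4584, SD, n = 3), with a log2 fold change of -1.97 ± 0.28 (SE, adjusted P = 0.00795, limma). Reg3a was 3.94-fold lower (1050 ± 308 against 4134 ± 882), with a log2 fold change of -1.99 ± 0.28 (adjusted P = 0.00806, limma). Both calls were lost without CD24+Tomato+ replicate 2 (adjusted P = 0.0557 for each, limma), and that of Reg1 without CD24+Tomato+ replicate 3 (0.0513), while the fold changes stayed between -2.22 and -1.69 under the alternatives. Enterocyte markers moved the same way: 6 of 10 were lower (10 of 10 with the block), their median log2 fold change was -2.60, and their sum was 72943 to 193799 normalized counts against 333189 to 1246808. The part of enterocytes in the Reg1 and Reg3a levels was not tested.

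Reg3b and Reg3g were lower in each same-numbered pair, yet passed the test only when pairs were compared. Reg3b was at 134061, 218555 and 395856 normalized counts in CD24+Tomato+ replicates 1, 2 and 3 and at 405054, 707444 and 1105030 in Tomatoneg replicates, so the highest CD24+Tomato+ library was just under the lowest Tomatoneg library. The 3 pairs differed by -1.60, -1.69 and -1.48 on the log2 scale. The mean log2 fold change of -1.59 had a standard error of 0.86 without the block (adjusted P = 0.278, limma) and of 0.37 with it (adjusted P = 0.0259). Reg3g was at 58481, 142623 and 214099 against 103703, 342415 and 460303, with overlapping groups and pair differences of -0.83, -1.26 and -1.10. Its log2 fold change of -1.06 had an adjusted P of 0.444 (limma) without the block and of 0.0394 with it. Neither the labels nor the methods say whether libraries of 1 number came from the same mice, and the pairing rests on the number and on the correlation of deviations.

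The balance of the 2 genes was followed as a ratio within each library. The ratio of Reg3b to Reg3g per kilobase was 2.26, 1.51 and 1.82 in CD24+Tomato+ replicates 1, 2 and 3, against 3.85, 2.03 and 2.36 in Tomatoneg replicates, lower in 3 of 3 pairs. In CD24negTomato+ replicates it was 2.81, 1.93 and 2.49, lower than in Tomatoneg cells in replicates 1 and 2 and higher in replicate 3. The ranges overlapped between all populations, and the ratio was not tested.

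**Figure D4:**
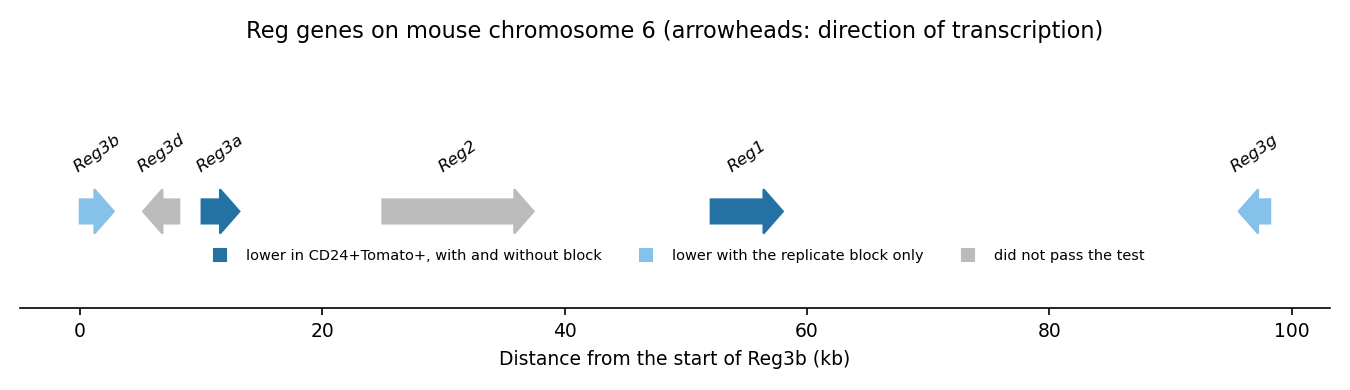
The 6 Reg genes of mouse chromosome 6 drawn to scale by distance from the start of Reg3b (horizontal axis, kb), with arrowheads in the direction of transcription and colors for the test of CD24+Tomato+ against Tomatoneg cells. Reg1 and Reg3a passed as lower with and without the block, Reg3b and Reg3g at the ends of the cluster passed with the block, and Reg2 and Reg3d did not pass.

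Reg2 lies between Reg3a and Reg1 in the cluster but did not share their direction. In CD24+Tomato+ replicates 1, 2 and 3 it was at 37.2, 25.4 and 178 normalized counts, against 8.87 and 16.6 in Tomatoneg replicates 2 and 3 and a listed 0 in replicate 1. The groups did not overlap, but the log2 fold change of 3.34 had a standard error of 1.32 and did not pass (adjusted P = 0.149, limma, and 0.0747 with the block). With the listed 0 it depends on the added constant, being 4.49 with 0.1 and 1.99 with 10, and quantile normalization gave 1.54. Reg3d was at 7.49, 11.9 and 31.6 against 58.6, 44.0 and 8.93, with overlapping groups and a log2 fold change of -0.97 ± 0.99 (SE, adjusted P = 0.578, limma).

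The high Reg2 library was also the one with the highest acinar transcripts. Of the 13 pancreatic acinar genes examined, 1 of 12 tested was higher in CD24+Tomato+ cells (Clps, colipase) and 5 with the block, beside 8.02% and 10.8% of all genes. The 13 genes summed to 6151, 14858 and 19933 normalized counts in CD24+Tomato+ replicates 1, 2 and 3, against 855 to 1432 in Tomatoneg libraries. Clps made up most of these CD24+Tomato+ sums, at 5059, 14146 and 13900, and did not follow Reg2. It was highest in replicate 2, where Reg2 was lowest. Leaving out Clps and Cela1, a choice made after the values were seen, the other 11 genes summed to 868, 468 and 5664 in CD24+Tomato+ replicates 1, 2 and 3 and to 134, 238 and 224 in Tomatoneg replicates. Of these 11, 10 had their highest value in CD24+Tomato+ replicate 3, including Ctrb1 (chymotrypsinogen, 1161 normalized counts) and Amy2a5 (amylase, 1274), and Prss1 was listed at 0 in all libraries. Cela1, though left out, also peaked there, at 224, 245 and 369 in CD24+Tomato+ replicates 1, 2 and 3. The share of all genes that peak in this library was not counted, so the 10 of 11 is a description only. The part of acinar transcripts in the Reg2 value was not tested. Among the 3 CD24+Tomato+ libraries, replicate 3 was also the highest for Reg3a (1396), Reg3b (395856), Reg3d (31.6) and Reg3g (214099). It was the lowest for Reg1 (2805) and Reg4 (9668).

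**Figure D5:**
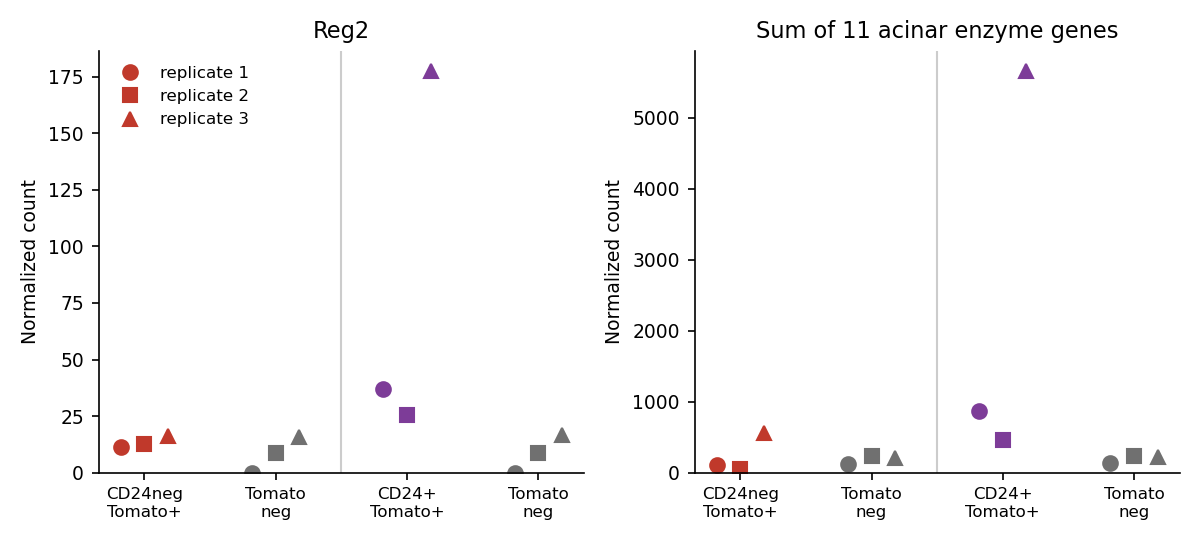
Normalized counts of Reg2 (left) and the sum of 11 acinar enzyme genes (right) in each library, by population and replicate, with the 2 separately scaled tables divided by the grey line. CD24+Tomato+ replicate 3 stands apart in both panels, at 178 and 5664. Clps, which did not follow Reg2, and Cela1 are left out of the sum.

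The pathway that induces the Reg3 genes was then examined through 24 genes of interleukin 22 and interleukin 6 reception, STAT3 signaling and bacterial sensing, of which 22 were tested. In CD24negTomato+ cells 0 were higher and 0 lower by limma (1 and 0 at an unadjusted P under 0.05), and with the block Fut2 alone was higher. In CD24+Tomato+ cells 2 were higher and 4 lower (2 and 6 with the block), where 8.02% of all genes were higher and 4.89% lower (10.8% and 9.95% with the block), and the median log2 fold change was -0.38, against 0.16 for all genes. Il6ra, the interleukin 6 receptor, was at 448, 256 and 143 normalized counts against 6.62, 11.9 and 29.3 (log2 fold change 4.15, adjusted P = 0.0158, limma). Fut2, a fucosyltransferase that interleukin 22 induces, was also higher (2.09, adjusted P = 0.0313, limma). Il18, an epithelial cytokine, fell by 2.35 on the log2 scale (adjusted P = 0.00318, limma) and Pim1, a STAT3 target kinase, fell by 1.57 (adjusted P = 0.0102, limma). Il17rc, an interleukin 17 receptor chain, fell by 1.01 (adjusted P = 0.0432, limma).

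Stat3, Socs3 and Il22ra1 were chosen for description after their values were seen. Stat3 was at 3796, 3356 and 3580 normalized counts in CD24+Tomato+ cells and at 6553, 3448 and 3610 in Tomatoneg cells, with a log2 fold change of -0.28 (adjusted P = 0.568, limma). Socs3, a feedback inhibitor that STAT3 induces, was at 1568, 2299 and 3706 against 1628, 2710 and 4078. Its log2 fold change was -0.14 (adjusted P = 0.859, limma). Socs3 replicates had the same order as those of Reg3b and Reg3g, lowest in 1 and highest in 3, in both groups. Of the other genes of the pathway list, Fut2, Il17rc, Myd88 and Tlr2 also had this order in both groups, and the rest did not. Myd88 was at 817, 1009 and 1328 in CD24+Tomato+ cells and at 1044, 1221 and 1834 in Tomatoneg cells. The share of all genes with this order was not counted. Il22ra1, the specific chain of the interleukin 22 receptor, was at 927, 667 and 793 against 2173, 999 and 1172, a log2 fold change of -0.79 that passed only with the block (adjusted P = 0.17, limma, and 0.0413 with the block). Extl3, a receptor described for Reg proteins, had a log2 fold change of -0.33 in CD24negTomato+ and 0.22 in CD24+Tomato+ cells, and Egfr, through which REG4 is reported to signal, had 1.18 and 0.90, and none of these passed (adjusted P from 0.212 to 0.674, limma).

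Other antimicrobial genes of the epithelium also went in both directions in CD24+Tomato+ cells. Of 28 listed, 23 were tested in CD24negTomato+ cells, where 1 was higher and 0 lower by limma (2 and 4 at an unadjusted P under 0.05, and 2 and 3 with the block), beside 0.999% and 0.32% of all genes (4.34% and 2.96% with the block). The higher gene was Zg16, a lectin of goblet cells that binds Gram-positive bacteria, at 849360, 837929 and 472291 normalized counts against 42398, 32537 and 24563 (log2 fold change 4.43, adjusted P = 0.00685, limma). In CD24+Tomato+ cells, 5 of 24 were higher and 4 lower (6 and 9 with the block), beside the same 8.02% and 4.89% of all genes (10.8% and 9.95%). The higher genes were Zg16 (log2 fold change 1.94), lysozyme Lyz1 (3.58), the ribonuclease Ang4 (3.64), the phospholipase Pla2g2a (3.08) and the lectin Itln1 (3.36), each of which is also on the goblet or Paneth marker list. The lower genes were the acute-phase gene Saa1 (-2.87), nitric oxide synthase Nos2 (-2.21) and the small proline-rich genes Sprr2a1 (-2.56) and Sprr2a2 (-2.23), and adjusted P values of the 9 ran from 0.00436 to 0.0443 (limma). Reads of Sprr2a1 and Sprr2a2 may be split between them, as they are close copies.

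The genes whose log2 values followed Reg3b, Reg3g and Reg4 most closely over the 6 libraries of a table were listed by Pearson correlation, as a description without a test. For Reg3b these were Czib and Hspa1b (r = 0.997 and 0.996) in the CD24negTomato+ table and Tgm2 and Mgst2 (0.996 and 0.991) in the CD24+Tomato+ table. For Reg3g they were Gm6682 and Gdf3 (0.997 and 0.997), then Emc3 and B4galnt4 (0.998 and 0.997). For Reg4 they were Cutal and Tmem130 (0.999 and 0.997), then Rasgrf1 and Nptx1 (0.999 and 0.998). Some of these genes were scarce: Gdf3 ran from a listed 0 to 22.5 normalized counts and Tmem130 from 0 to 57.6. Gm6682 also had a listed 0. No gene recurred between the tables, and 1.87% to 9.28% of all genes reached r above 0.9 with 1 of these members, so such closeness is common over 6 points that share libraries and group. Reg3b and Reg3g had r = 0.944 and 0.914 with each other, and Reg3b and Reg4 had r = -0.13 and -0.80.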

How the data were processed

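The authors sequenced poly-A mRNA from the sorted populations (bcl2fastq 2.19, kallisto 0.44.0, sleuth and DESeq2 per the submitters' processing notes, build GRCm38). The deposited values are a signal, for which the authors normalized kallisto's estimated gene counts with DESeq2, separately in each of 2 tables of 6 libraries. The annotation release and strand setting are not given in the sources used here. For the 5 abundant Reg genes, the values of the shared Tomatoneg libraries differed between tables by a factor of 1.03 to 1.08, so tests were run only within a table.

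Genes with a mean of at least 10 were tested on log2(normalized count + 1) with limma 3.58.1 in R 4.3.3 (lmFit, eBayes with trend), two-sided, with Benjamini-Hochberg adjustment over all genes and a threshold of 0.05. All 7 Reg genes passed this filter in both tables. Fold changes are on this scale and understate those of low genes. P values measure the spread between libraries, which the labels call biological replicates. The scripts were run on simulated data with changes larger than any Reg fold change here and no deviation shared by replicate number. That run gives no power or error rate for the Reg results. Deviations of same-numbered libraries correlated at 0.29 to 0.34 in the CD24negTomato+ table and at 0.18 to 0.38 in the CD24+Tomato+ table, and the pairing comes from the numbers in the labels.

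Members and lists were chosen with earlier results of these data known. Genes named are the members, Extl3 and Egfr, list genes past the threshold in a comparison (at most 10 per comparison), the 2 genes closest in correlation to Reg3b, Reg3g and Reg4, and markers that moved with a Reg result. Stat3, Socs3 and Il22ra1 were named after their values were seen, as the steps closest to Reg3 induction. Myd88 and Tlr2 were named for the order of their replicates, also after the values were seen. Lengths, positions and shared 31-base stretches came from GENCODE M21, with the longest transcript among those with the longest coding sequence, and promoters from RefSeq GRCm38.p6 (7 of 7 matched). Alternatives were the replicate block, quantile normalization, equal library totals, pseudocounts of 0.1 and 10, no filter or a minimum mean of 50, a minimum log2 fold change of 1, and each library left out. Leaving out both libraries numbered 1 was added after the values were seen. Some results that the rule for named genes would give are not reported here. Figures used matplotlib 3.10.9.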

Additional observations from a re-analysis of the deposited data

Results flagged for a closer look

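The same-numbered pairs of Reg1 differed in opposite directions in the 2 Neurog3-derived populations. Its log2 fold change against Tomatoneg was 0.49 in CD24negTomato+ cells, with 3 of 3 pairs higher, overlapping groups and no call (adjusted P = 0.467, limma, and 0.0942 with the block). It was -1.97 in CD24+Tomato+ cells, with 3 of 3 pairs lower (adjusted P = 0.00795, limma). The difference was not tested, since the tables were scaled separately and share the Tomatoneg libraries.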

How the results depend on the processing

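In CD24negTomato+ cells the number of Reg genes past the threshold was 0 to 1 when libraries were left out, and in CD24+Tomato+ cells it was 1 to 3, against 5 with the replicate block. With the block, 1 gene of the Reg3 inducing list and 5 other antimicrobial genes passed in CD24negTomato+ cells (0 and 1 without it), and 15 antimicrobial genes passed in CD24+Tomato+ cells (9 without it). The block changed no other call of a Reg gene. Signs turned only for uncalled members in CD24negTomato+ cells: equal library totals gave Reg3a -0.18 and Reg3g -0.14, and quantile normalization gave Reg2 -0.0079, Reg3a -0.023 and Reg3g -0.73, and moved Reg3b from -0.09 to -1.10. With libraries left out, Reg3a ran from -0.17 to 0.23, Reg3b from -0.49 to 0.26 and Reg3g from -0.61 to 0.53. The causes were not tested. The number of all genes called in CD24negTomato+ cells was 134 higher and 43 lower, 582 and 397 with the block, 17 and 1 without CD24negTomato+ replicate 2, and 617 and 442 without Tomatoneg replicate 1. In CD24+Tomato+ cells it was 1113 and 678, and 127 and 41 without CD24+Tomato+ replicate 2, 1620 and 858 without Tomatoneg replicate 1, and quantile normalization gave 991 and 1036. Of the Reg values, only the listed 0 of Reg2 in Tomatoneg replicate 1 lay under the estimated 3-read limit.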
